A study of Mus musculus with 2 samples.

Results

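The keratin gene family was examined in the mandible of the mouse fetus at E18.5 (embryonic day), shortly before birth. Its members were chosen by name, as the probe sets annotated to 1 gene whose symbol is Krt and a number, with or without a letter, and excluding the keratin-associated proteins. This gave 52 of the 19938 genes that have a probe set of their own on the array, each represented by 1 probe set. 1 array was hybridised with RNA from wild-type mandible on the BALB/c background, and 1 with RNA from mandible of BALB/c fetuses null for both Myf5 and MyoD, the factors that commit cells to skeletal muscle. No treatment was given, the line without these factors forms no skeletal muscle, and the study's title asks what muscle does in the development of the lower jaw. The number of fetuses behind each RNA sample and their sex are not given in the sources used here. With 1 array per genotype there is no replicate check, no test between genotypes and no p-value, and every difference below compares these 2 arrays.

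Keratins are the intermediate filament proteins of epithelial cells. An acidic type I keratin pairs with a basic type II keratin to build the filament, and the pair in use marks the kind of epithelium: Krt5 with Krt14 in the basal layer of skin and oral mucosa, Krt1 with Krt10 in the layers above it in epidermis, Krt4 with Krt13 above it in oral mucosa that does not cornify, and Krt8 with Krt18 in simple epithelia such as gland ducts and acini. Hair keratins build the hair shaft and the sheaths around its root. A mandible sample can hold skin with hair follicles, oral mucosa, dental epithelium and salivary glands beside bone and cartilage. In bulk RNA of this kind, fewer cells of a type and less RNA per cell cannot be told apart.

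All values are deposited log2 signals, and where a gene is given with a pair of values the wild type comes first and the double knockout after it. The file has no detection calls, so the median of the annotated probe sets of each array, 6.18 for wild type and 6.19 for double knockout, served as a floor. A gene above it on at least 1 array was called measured, and a value below it was raised to it before a difference was taken, which makes that difference a lower bound. A positive difference means a higher log2 value in the double knockout than in the wild type. Over the 10393 measured genes their median was 0.10, and 6963 (67.0%) lay above 0. As a measure of technical spread, the difference was computed separately from the 2 brightest probe sets of each of 532 genes, and the gap between the pair had an SD of 0.23, a spread that leaves out animals and hybridisations and that cannot be had for any keratin, since each has 1 probe set. Probe sets differ in how brightly they report, so levels are compared between arrays and not between genes. The targeted genes Myf5 and Myod1 read 6.31 and 4.95, and 7.14 and 6.49. Both were lower in the double knockout, but Myod1 stayed above the floor there, and Myf5 fell below it, so that its difference of -0.13 after the floor is only a bound. Of a list of 10 skeletal muscle genes, 10 exceeded the floor on the wild-type array but 0 on the other. Their median difference was -5.50, a bound, since all 10 double-knockout values were raised to the floor. The Y-linked gene Eif2s3y read 2.38 and 6.55, while Xist, which female cells express, read 10.87 and 10.22. The arrays thus differ in a Y-linked marker although both hold the female one, and this difference cannot be told apart from genotype.

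The promoter windows of 4 keratins are shown first. Krt18, Krt8 and Krt7 had the largest positive differences of the family. Krt13 is the partner of Krt4 and is shown for the oral pair although its own difference was small (-0.14). The sequences are RefSeq's, on build GRCm38.p6, each of 300 bases from 250 before to 50 after an annotated gene start, read on the gene's own strand. Krt8 lies at chr15:102004293-102004592 on the minus strand, Krt18 at chr15:102027966-102028265 and Krt7 at chr15:101412153-101412452 on the plus strand, and the first of the 2 windows listed for Krt13 at chr11:100121517-100121816 on the minus strand. Capitals mark matches to the TATA box letters TATAAA, to their variant ATAAAA and to the GC box letters GGGCGG, on either strand.
Krt8: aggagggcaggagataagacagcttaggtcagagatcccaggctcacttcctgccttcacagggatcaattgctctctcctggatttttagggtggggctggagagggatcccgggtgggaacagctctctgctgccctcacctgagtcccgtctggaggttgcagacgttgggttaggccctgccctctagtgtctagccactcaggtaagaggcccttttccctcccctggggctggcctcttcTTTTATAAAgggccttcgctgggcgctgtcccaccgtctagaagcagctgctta
Krt18: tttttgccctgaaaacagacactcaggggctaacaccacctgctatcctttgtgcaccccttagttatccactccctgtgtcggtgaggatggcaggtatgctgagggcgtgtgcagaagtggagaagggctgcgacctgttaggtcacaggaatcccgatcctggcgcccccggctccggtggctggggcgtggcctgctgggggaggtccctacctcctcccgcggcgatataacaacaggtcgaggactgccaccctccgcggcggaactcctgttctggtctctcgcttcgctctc
Krt7: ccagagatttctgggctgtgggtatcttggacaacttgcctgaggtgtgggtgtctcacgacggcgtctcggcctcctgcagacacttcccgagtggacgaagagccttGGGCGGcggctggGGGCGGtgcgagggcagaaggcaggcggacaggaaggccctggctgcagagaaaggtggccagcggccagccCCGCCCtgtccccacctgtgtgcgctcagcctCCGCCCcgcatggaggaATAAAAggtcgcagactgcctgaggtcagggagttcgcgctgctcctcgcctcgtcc
Krt13: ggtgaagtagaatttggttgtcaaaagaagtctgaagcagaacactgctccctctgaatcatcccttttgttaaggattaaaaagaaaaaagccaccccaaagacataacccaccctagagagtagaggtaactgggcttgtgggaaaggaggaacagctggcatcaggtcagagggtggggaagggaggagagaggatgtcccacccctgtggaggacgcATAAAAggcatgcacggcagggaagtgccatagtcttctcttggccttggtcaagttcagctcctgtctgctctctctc

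These windows had little in common by these motifs. Krt8 held a TATA box in both directions, overlapping at its annotated start and overlapping the variant. Krt7 held 4 GC boxes and the variant, Krt13 the variant alone, and Krt18 none of the 3. The E-box CACCTG, a site that epithelial repressors of the Snail and Zeb families can bind, was found once in each of the Krt7, Krt8 and Krt18 windows and not in that of Krt13. Windows were found for 36 of the 52 keratins, 37 in all. They cover 12 of the 21 keratins above the floor on at least 1 array, without Krt4, so the shares below come mostly from keratins below the floor. Of the 37, 19 (51.4%) held TATAAA, against 13.6% of 32851 windows of the same length over all genes. The variant ATAAAA, chosen after these sequences were seen, was in 59.5% against 18.47%. It overlapped TATAAA in some of the windows that held both, such as that of Krt8, and lay apart from it in others, such as those of Krt31, Krt33b and Krt84. GGGCGG was in 5.41% against 35.7% and CACCTG in 40.5% against 20.2%. The AP-1 letters TGANTCA were in 5.41% against 7.81%, all in windows of 1 keratin, Krt13, including the window shown. The ETS letters AGGAAG were in 40.5% against 35.4%. The AP-2 letters GCCNNNGGC, which can overlap a GC box, were in 18.9% against 16.6%. Both strands were searched, and a match is a description of the letters and not a binding site.

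Of the 52 keratins, 21 were measured and 31 lay below the floor on both arrays. Among the 21, 18 exceeded the floor on both arrays and 3 on 1 of them. The differences ran from -0.81 to 1.30 with a median of 0.13, beside 0.10 over all measured genes. In the double knockout 14 of the 21 were higher, close to the share of 67.0% over all measured genes. At least 1.5-fold higher were 3 keratins, where 3.07% of all measured genes were, and 1 was at least 1.5-fold lower, where 5.11% were. At least 2-fold higher was 1 keratin, against 0.510% of measured genes, and 0 were at least 2-fold lower, against 2.73%. The difference was larger than the probe set SD of 0.23 in Krt18, Krt8, Krt7, Krt14 and Krt17 upwards and in Krt4 and Krt87 downwards. Passing this SD does not by itself set a keratin apart. A difference as high as that of Krt14 was reached by 12.8% of all measured genes, and one as low as that of Krt87 by 9.95%. All 3 keratins past 1.5-fold upwards belonged to the simple and glandular class and the lower one to the oral mucosal class.

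**Figure D1:**
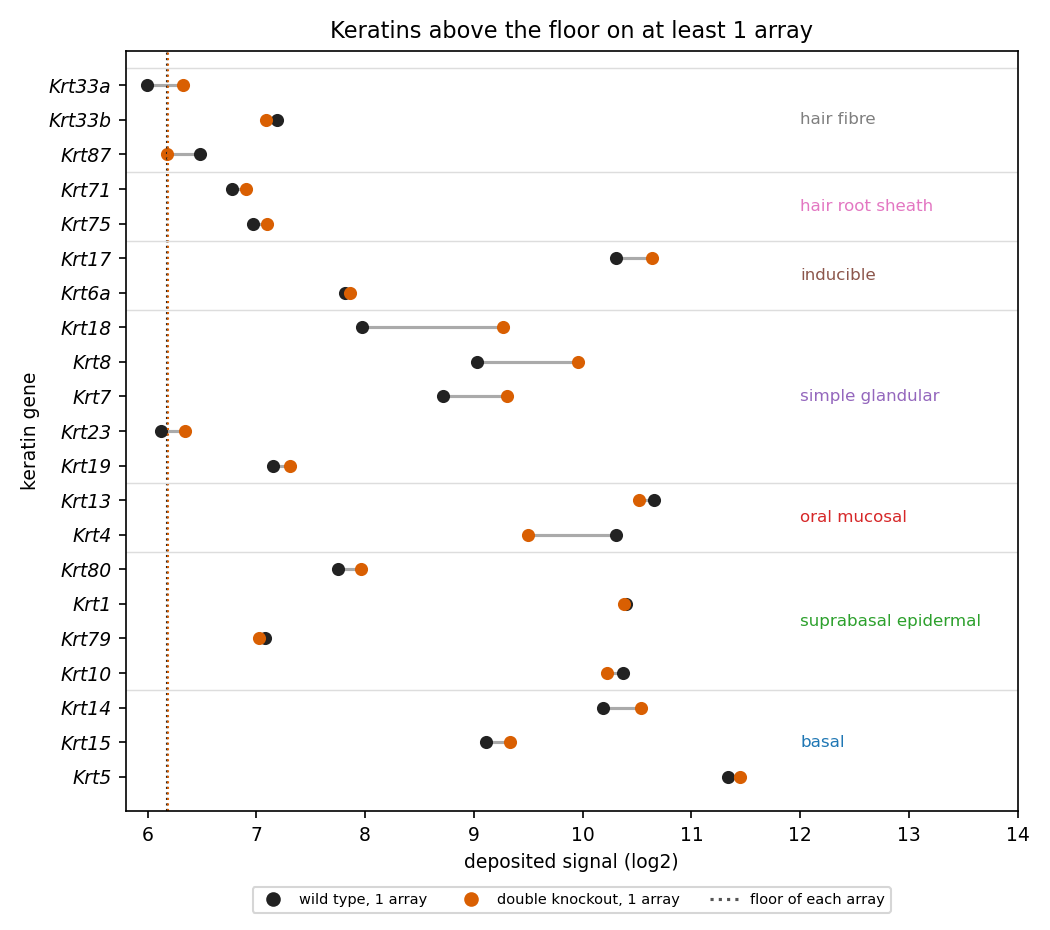
Deposited log2 signal (horizontal axis) of the 21 measured keratins (vertical axis, grouped by class), with the wild-type array in black, the double-knockout array in orange and dotted lines at the floors of 6.18 and 6.19. Krt18, Krt8 and Krt7 lie further right in the double knockout and Krt4 further left, while most other pairs of points lie close together.

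The simple and glandular keratins that were measured, 5 of 6, were all higher in the double knockout, against 67.0% of all measured genes. Of the 5, 4 exceeded the floor on the wild-type array. Krt23 was measured only through the double-knockout array, so its direction was set by the filter. Krt18, the type I keratin of simple epithelia, read 7.97 in wild type against 9.26 without the muscle factors, a difference of 1.30 or 2.46-fold. Counting Krt18 itself, 24 of the 10393 measured genes (0.231%) had a difference that high. Krt8, its type II partner, read 9.03 and 9.96, a difference of 0.93 or 1.90-fold, reached by 64 genes (0.616%). Both partners were thus higher on the double-knockout array, with Krt18 ahead by 0.37. Krt7, a type II keratin of ducts and other glandular epithelia, read 8.71 and 9.30, a difference of 0.59 or 1.504-fold. This lay at the 1.5-fold threshold and among the 3 scalings passed it only as deposited: centring all genes on a median of 0 gave 0.49, and quantile normalisation gave 0.56.

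Other members of the class were near the median of all genes. Krt19, the small type I keratin of ducts and of some basal cells, read 7.15 and 7.31, a difference of 0.16. Krt23, a type I keratin, was below the floor in the wild type (6.12) and above it in the double knockout (6.34), at least 0.16 higher. Krt20, the keratin of intestinal and urothelial cells, was listed at 3.49 in both genotypes, below the floor. The class median over 5 measured members, counting Krt23, was 0.59 (0.49 with the median difference set to 0). Under both other scalings 5 of 5 were higher, again counting Krt23, which the filter let in through the double knockout. The class was not separate from the others, since Krt14 and Krt17 of other classes differed by more than Krt19 and Krt23.

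**Figure D2:**
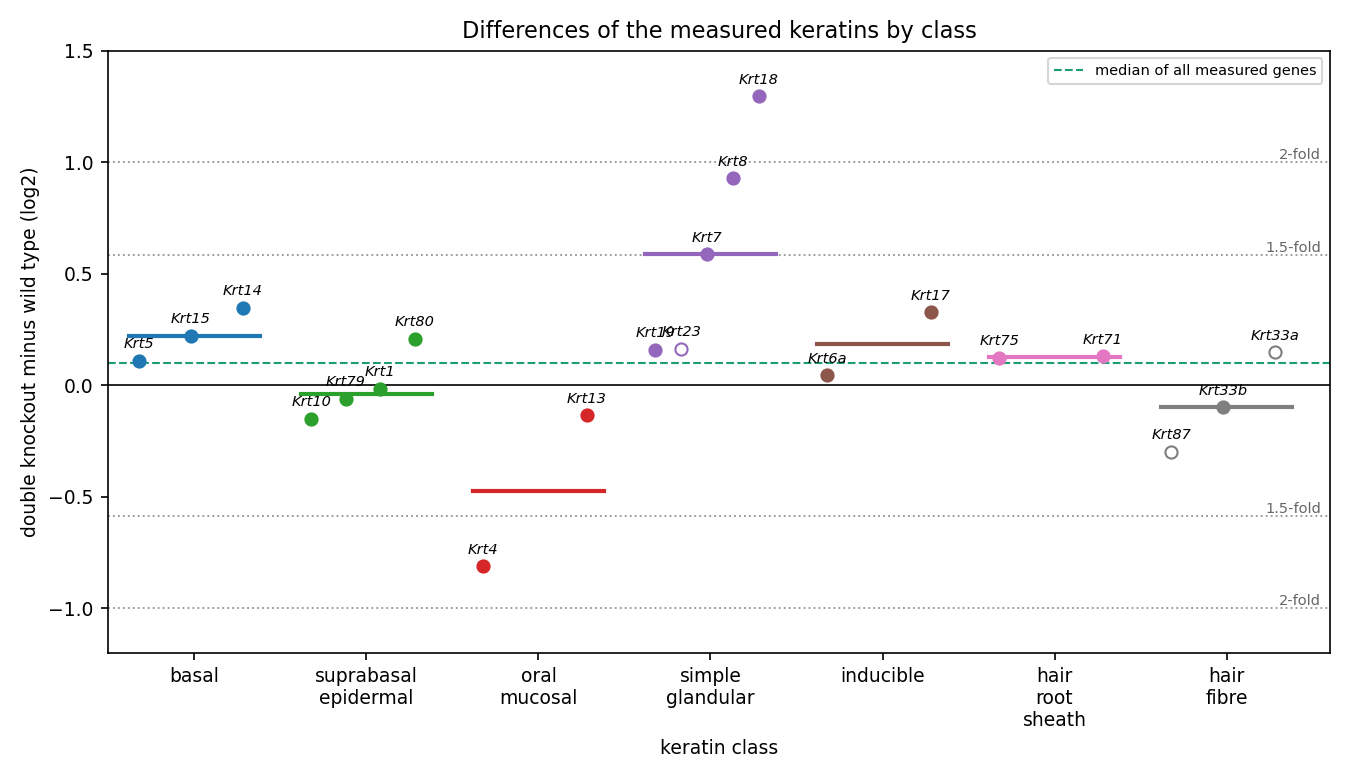
Double knockout minus wild type (log2, vertical axis) for each measured keratin by class, with a bar at the class median, open points for lower bounds, a dashed line at the median of all measured genes (0.10) and dotted lines at 1.5-fold and 2-fold. The simple glandular class reaches 1.30 and the oral mucosal class -0.81, and the other classes lie between -0.30 and 0.35.

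The oral mucosal pair was lower in the double knockout, unequally. Krt4, the type II keratin of the layers above the basal one in oral mucosa and esophagus, read 10.31 in wild type against 9.50 without the muscle factors, a difference of -0.81 or 1.76-fold lower. Counting Krt4, 364 measured genes (3.50%) had a difference that low, a group that includes the muscle genes. Its type I partner Krt13 read 10.65 and 10.52, a difference of -0.14, and was lower under both other scalings too. The gap between the partners was 0.68, the widest of the 4 classical pairs. Krt76, a type II keratin of the hard palate and gum, read 4.44 and 4.22, and Krt24 read 5.35 and 5.72, so both were below the floor. The class median of -0.47 therefore rested on 2 genes. It was -0.57 with the median difference set to 0.

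The keratins of the basal layer were slightly higher. Krt5 read 11.34 and 11.45, a difference of 0.11. Its partner Krt14 read 10.19 and 10.53, a difference of 0.35 or 1.27-fold. Krt15, a type I keratin of basal cells and of stem cells in the hair follicle, read 9.11 and 9.33, a difference of 0.22. All 3 lay above 0 under both other scalings, Krt5 by 0.01 with the median difference set to 0, and 0 of 3 reached 1.5-fold. The class median was 0.22.

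The epidermal keratins above the basal layer were nearly level. Krt1 read 10.40 and 10.38, a difference of -0.02. Its partner Krt10 read 10.37 and 10.22, a difference of -0.15. Krt79, a type II keratin of the hair canal and sebaceous duct, read 7.08 and 7.02, a difference of -0.06, and Krt80, a type II keratin of many stratified epithelia, read 7.75 and 7.96, a difference of 0.21. None of the 4 reached 1.5-fold, and 3 of 4 were lower under all 3 scalings, with a class median of -0.04. Krt2, Krt9, Krt77 and Krt78, of which Krt2 marks late epidermis and Krt9 that of palms and soles, lay below the floor on both arrays, between 3.27 and 5.45 for wild type and between 3.85 and 5.16 for double knockout.

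The other pairs of stratified epithelia lay closer together than Krt4 with Krt13. Krt14 exceeded Krt5 by 0.24 in its difference, and Krt10 fell short of Krt1 by 0.13 (a gap of -0.13).

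The inducible keratins, made in wounded skin, in hair follicles and on the tongue, were divided. Krt17, a type I keratin of skin appendages and of fetal periderm, read 10.31 and 10.64, a difference of 0.33 or 1.26-fold. Krt6a, a type II partner of it, read 7.81 and 7.86, a difference of 0.04 that turned to -0.05 with the median difference set to 0. Krt6b, a close copy of Krt6a whose probes may share transcripts with it, read 6.11 in the wild type, just under the floor, and 5.17 on the other array. It was not measured by the rule used, but a floor at the 25th percentile would give it a difference of -0.94. Krt16, the usual type I partner of Krt6 in wounded epidermis, was below the floor on both arrays at 4.12 and 4.27.

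Hair keratins were mostly below the floor. Of 25 listed, 22 had a probe set of their own and 5 were measured, while Krt81, Krt83 and Krt85 were not analysed here. In the root sheath, Krt71, a type II keratin of the inner sheath, read 6.77 and 6.90, a difference of 0.13. Krt75, a keratin of the companion layer around it, read 6.97 and 7.10, a difference of 0.12. In the hair shaft, Krt33b read 7.19 and 7.09, a difference of -0.10. Krt33a, a near copy of Krt33b whose signal may not be its own, was below the floor in the wild type at 6.00 and read 6.32 in the double knockout, at least 0.15 higher. Krt87 read 6.48 and 6.18, the latter just under the floor of its array, at least 0.30 lower. The median of the 5 was 0.12 (0.03 with the median difference set to 0), and -0.10 over the 3 shaft keratins alone.

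The hair keratins below the floor numbered 17. They were Krt31, Krt32, Krt34, Krt35, Krt36, Krt39, Krt40, Krt82, Krt84 and Krt86 of the shaft and Krt25, Krt26, Krt27, Krt28, Krt72, Krt73 and Krt74 of the root sheath, with wild-type values from 3.53 to 5.89 and double-knockout values from 3.31 to 6.00. Krt72 was listed at 5.07 in both genotypes. The 5 keratins outside these classes, Krt12 of the cornea, Krt42, Krt88, Krt90 and Krt222, lay between 4.37 and 5.38 on both arrays and thus below the floor. Differences of values this dim were not read.

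**Figure D3:**
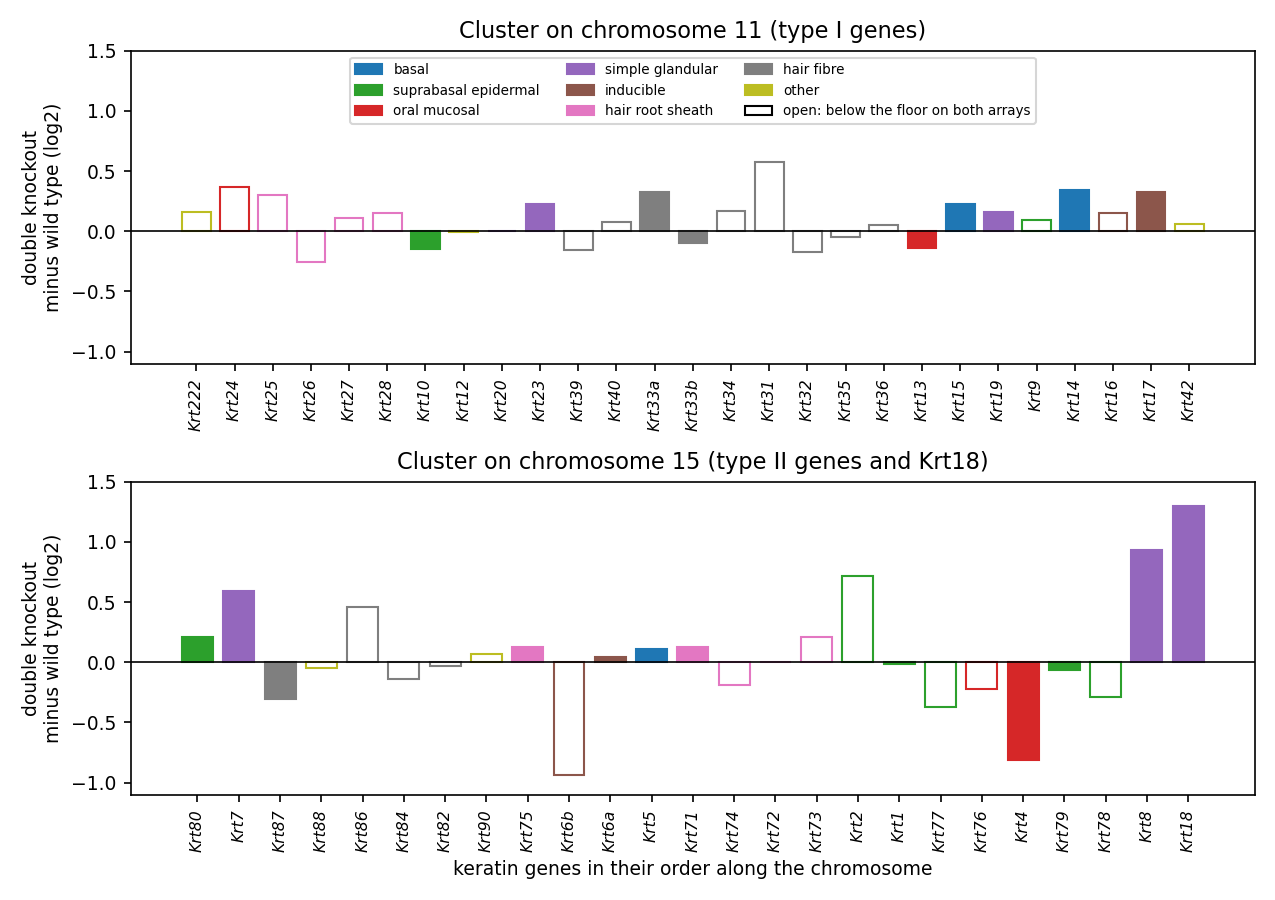
Deposited double knockout minus wild type (log2, vertical axis) of all 52 keratins in their order along chromosome 11 (27 genes) and chromosome 15 (25 genes), coloured by class, with open bars for genes below the floor on both arrays. Krt8 and Krt18 are neighbours at the end of the chromosome 15 cluster (0.93 and 1.30), and Krt7 (0.59) lies near the other end.

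Of the 52 keratins, 27 lie in the cluster on chromosome 11, which holds type I genes, and 25 in the cluster on chromosome 15, which holds type II genes and Krt18. Krt8 and Krt18 are next to each other, Krt4 (-0.81) lies among Krt79, Krt76 and Krt77, and Krt7 is near the far end. On chromosome 11, 9 genes were measured, with differences from -0.15 to 0.35, and on chromosome 15, 12 genes, from -0.81 to 1.30.

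**Figure D4:**
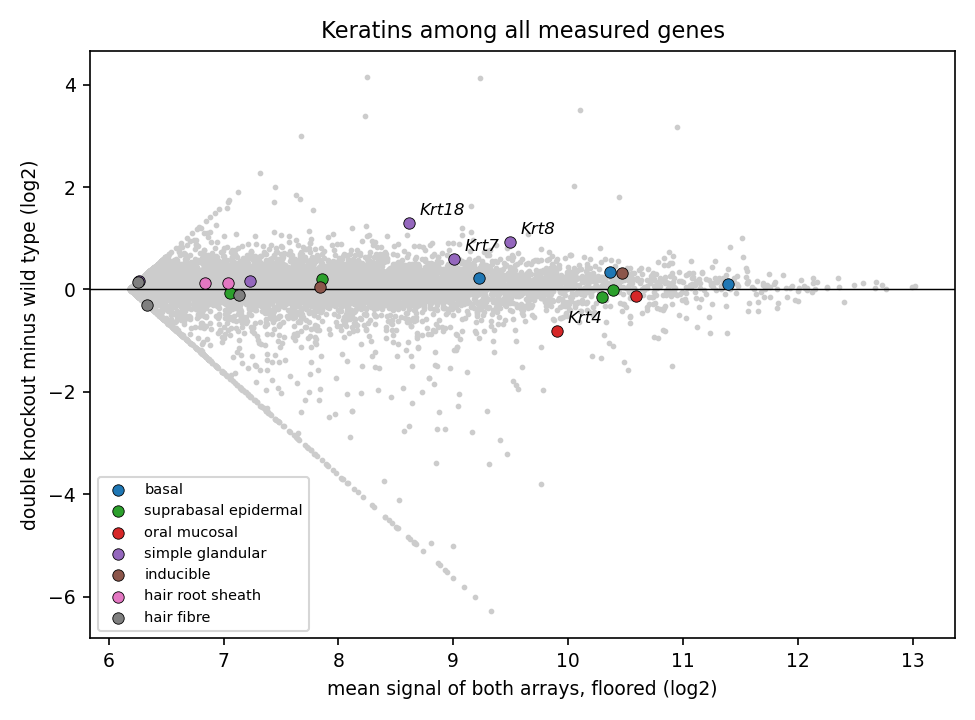
Double knockout minus wild type (log2, vertical axis) against the mean floored signal of both arrays (log2, horizontal axis) for the 10393 measured genes in grey and the 21 measured keratins in colour by class. Krt18 at 1.30 and Krt8 at 0.93 lie near the upper edge of the grey points, Krt4 at -0.81 lies below most of them, and the other keratins lie within the main band.

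Genes that work with keratins were examined as lists, chosen with earlier results of these data known. Desmosomes anchor keratin filaments at contacts between cells. Of 12 measured desmosome genes, 10 were higher in the double knockout, against 67.0% of all measured genes, with a median of 0.32. At least 1.5-fold higher were 2 of them, against 3.07% of all genes (1 with the median difference set to 0, against 1.80%). The desmosomal cadherins Dsg2, typical of simple epithelia, and Dsc3 read 6.69 and 7.45 (0.76) and 8.96 and 9.62 (0.66). Dsg1b, a cadherin of the outer epidermis, and envoplakin, Evpl, were the 2 lower members, at -0.09 and -0.01. Hemidesmosomes anchor basal keratins to the basement membrane. Of 7 measured, 5 were higher and 2 lower, where 67.0% of all measured genes were higher, with a median of 0.36. The integrin subunits Itgb4 and Itga6 differed by 0.49 and 0.42, while the linker proteins Plec and Dst, which muscle also makes, differed by -0.53 and -0.28. As deposited, 0 of the 7 were at least 1.5-fold lower, against 5.11% of all measured genes. With the median difference set to 0 it was 1, and the share over all genes at that setting was not computed.

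Transcription factors of keratinocytes and other epithelia had a median of 0.28 over 11 measured members. Of these, 9 were higher, against 67.0% of all measured genes (8 with the median difference set to 0). Tfap2c and Elf3, among the 9, exceeded the floor only on the double-knockout array, so their direction was set by the filter. The largest difference was in Ehf, an ETS factor of glandular and stratified epithelia, which read 7.61 and 8.86 (1.25, 2.38-fold). Zfp750, a factor of epidermal differentiation, followed at 0.69. Gata3 and Klf5 were the lower ones at -0.11 and -0.09. Among 5 hair cortex factors, Hoxc13 and Foxn1 were below the floor on both arrays, as most hair shaft keratins were. Msx2 and Dlx3, which tooth and bone also express, were higher by 0.67 and 0.61, and Lef1 by 0.41. Of these 3, 2 passed 1.5-fold as deposited, against 3.07% of all genes, but 0 did after centring on a median of 0, against 1.80%.

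Genes of late epidermal differentiation went the other way. Of 9 measured, 7 were lower in the double knockout, where 67.0% of all measured genes were higher. Casp14, among the 7, exceeded the floor only on the wild-type array, so its direction was set by the filter. After either rescaling 9 were lower, but the 2 added, Sprr1b and Tgm3, lay at 0.00 and 0.01 as deposited and crossed 0 with the shift of all genes. Of the 9, 3 were lower by 1.5-fold or more, against 5.11% of all genes, with a median of -0.39. Sprr1a, a cross-linked protein of the cornified envelope, read 9.59 and 8.42 (-1.18), and loricrin, Lor, 9.22 and 8.34 (-0.88). Tgm3 and Sprr1b were level at 0.01 and 0.00. Krt1 and Krt10, the keratins of the epidermal layers above the basal one, differed by -0.02 and -0.15.

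**Figure D5:**
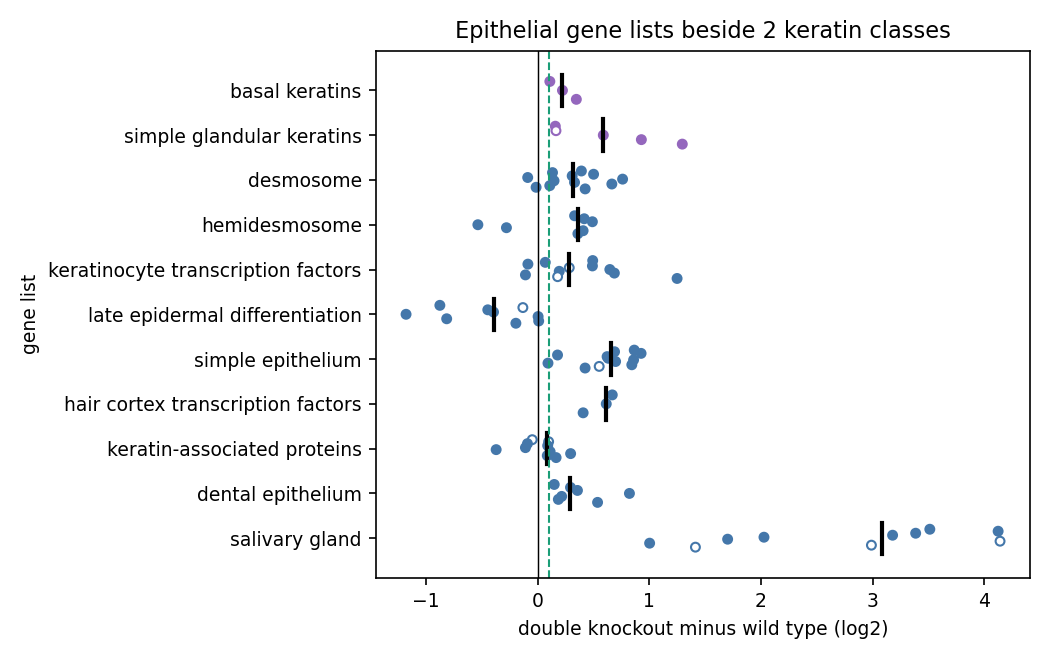
Double knockout minus wild type (log2, horizontal axis) for the measured members of each list (vertical axis), with a black bar at each median, open points for lower bounds, a solid line at 0 and a dashed line at the median of all measured genes (0.10). The simple glandular keratins (median 0.59) lie near the simple epithelium list (0.66), the salivary gland list lies far to the right (3.08), and late epidermal genes lie to the left (-0.39).

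Genes listed for simple epithelium and for salivary gland were also higher in the double knockout, as Krt8 and Krt18 were. The first list is a label of convenience, and which epithelium its genes came from was not tested. The 12 simple epithelium genes were all higher, against 67.0% of all measured genes, 11 of them also after centring on a median of 0. Their median was 0.66, and 8 passed 1.5-fold, against 3.07% of all genes (6 after centring, against 1.80%), but 0 passed 2-fold, against 0.510%. The claudin Cldn3 and the adhesion gene Epcam differed most (0.93 and 0.87), and Rab25 and Cldn4 least (0.09 and 0.18). Every one of 10 salivary gland genes was up by 2-fold or more (9 of them after either rescaling), against 0.510% of all genes. Their deposited values ran from 4.77 to 11.01 for wild type and from 7.59 to 12.54 for double knockout. On the wild-type array 7 of 10 exceeded the floor. Prol1, Car6 and Bhlha15 were measured only through the double knockout, which fixed their direction but not their size. The list was chosen with earlier results of these data known, so its count is a description and not independent support. The secreted proteins Prol1 and Pip differed by at least 4.14 and by 4.12, and Dcpp1 and the secretory factor Bhlha15 by 1.003 and at least 1.41. The differences of the simple keratins were smaller than that of any member of this list except that Krt18 exceeded Dcpp1. The part of gland tissue in the keratin result was not tested.

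Other epithelia of the jaw gave smaller differences. All 7 dental epithelium genes were higher, against 67.0% of all measured genes, with a median of 0.29. The enamel protease Mmp20 (0.82) and amelotin, Amtn (0.54), differed most, and amelogenin, Amelx (0.15), and Odam (0.19) least. In the list of myoepithelium and smooth muscle, where gland myoepithelial cells would also make Krt5 and Krt14, 4 of 6 were lower. Over all measured genes, 67.0% were higher. Acta2 and Actg2 differed by -0.93 and -0.73, and Mylk and Cnn1 by 0.58 and 0.08. Of 44 keratin-associated protein genes, which encode the matrix between hair keratin filaments, 10 were measured. None of the 10 reached 1.5-fold. Krtap7-1 and Krtap9-3 were highest at 0.30 and 0.17, Krtap5-1 and Krtap3-1 lowest at -0.37 and -0.11, and their median of 0.09 became -0.0094 with the median difference set to 0.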

How the data were processed

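Total RNA of E18.5 mandible was extracted with Trizol and 6 µg of it labelled with biotin for Affymetrix arrays, per the labels' protocols. The deposited log2 values, 1 per probe set and array, were used as given; that they are log2 was read from their range, 1.42 to 13.35. MAS5 is listed without a version in the submitters' processing notes; the background correction, the scaling between arrays, the log step and the build are not given in the sources used here. Gene names came from GEO's platform annotation: 21789 of 35557 probe sets named 1 gene, 1621 several and 12147 none. All 52 keratins matched RefSeq's GRCm38.p6 table by Entrez identifier.

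The floor, the bounds and the call thresholds are described with the results. A gene with several probe sets was represented by the brightest. Every measured keratin is named, and in other lists the 2 most different members in each direction. Hoxc13 and Foxn1 were fixed as hair markers. The members and lists were chosen with earlier results of these data known. The fold-call code was run on simulated data with little noise and with shifts well past the threshold in bright genes. That run checked the code and says nothing about the reliability of any call made here. The number of arrays limits the precision. Alternatives were other scalings, floors, the median over probe sets, a 3-fold threshold and other class memberships. Python 3.11.15, pandas 2.3.3, numpy 2.4.6 and matplotlib 3.10.9 were used.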

Additional observations from a re-analysis of the deposited data

How the results depend on the processing

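No paired analysis was possible because each genotype has 1 array. Among alternative values of the class medians and the counts of keratins, 54 moved by less than the spread between probe sets (medians) or by at most 1.5 times (counts), and 5 by more. Among the 54, the keratins at least 1.5-fold higher went from 3 to 2 under both other scalings, as Krt7 no longer passed. The share of all measured genes fell too, from 3.07% to 1.80% with the median difference set to 0 and 2.58% with quantile normalisation. At a 3-fold threshold, 0 keratins were higher. With the floor at the 25th percentile, 45 keratins were measured, 2 of them at least 1.5-fold lower (Krt4 and Krt6b), and the oral mucosal median was -0.18 over 4 genes. With the floor at the 75th percentile, 13 keratins were measured, the simple glandular median was 0.93 over 3 genes, and no hair keratin was left to give a median. With the inducible keratins counted as oral mucosal, that median was -0.046. Apart from the stricter threshold, these shifts come from which genes entered. All 118 alternative values of single keratins moved by less than the spread between probe sets, and Krt6a alone changed sign. Most of them could hardly move, so this tally is no measure of robustness. Each keratin has 1 probe set, another floor leaves values above it unchanged, and centring shifts all genes alike. Several of the 54 were fixed in the same way, such as the oral mucosal median without Krt24, which was not measured. Signals below the floor and the missing replicates limit what can be read.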
